A study of Homo sapiens with 17 samples.

Results

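Homologous recombination, Fanconi and mismatch repair genes were followed as a set of 43 gene symbols listed by name. All 43 were among the 17808 genes of the expression table, and all 43 were among the 12922 genes that passed the filter on low values (1 RPKM or more in 3 or more libraries). RPKM is a read number scaled by gene length and by library size. RNA-seq had been done on cells labelled HepG2, an established line from a human hepatocellular carcinoma, of WT genotype. Of the 9 libraries, 3 were from cells given 40 mM 2-DG (2-deoxyglucose, a glucose analogue that blocks glycolysis), 3 from cells given 40 mM Nala, named here as in the labels, and 3 from untreated NC cells. The sample titles give 48 h for 2-DG and 24 h for NC, so treatment and time in culture cannot be told apart in that comparison. For Nala the titles give 48 h and the series design gives 24 h. By the titles Nala and NC also differ in time, and by the design Nala and 2-DG do. The design calls the 3 libraries of a group biological replicates. Nala replicates 2 and 3 differed by less than the sampling noise (chi-square per degree of freedom 0.917, against 2.12 to 9.91 for the other pairs of replicates) and were counted as 1 sample. The defining hepatocyte markers APOB and TF were at or near 0 in all 9 libraries, which goes against the labelled cell type, and the cells are called here by their label. The ChIP-seq and ATAC-seq samples of the series were not analysed here.

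Homologous recombination repairs a broken chromosome by copying from an intact sister: nucleases resect the ends, BRCA1 and BRCA2 complexes prepare the exposed strand for invading its copy with the help of factors such as XRCC2 and XRCC3, and helicases and nucleases take the joined molecules apart. The Fanconi pathway acts on DNA crosslinks, where a core complex with the ubiquitin-conjugating enzyme UBE2T marks FANCD2 and FANCI on the damaged DNA. Mismatch repair removes wrongly paired bases after replication. As background, many of these genes are known to be transcribed mainly in cycling cells.

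Across the set, 32 of the 43 genes were lower with 2-DG than in NC by limma (Benjamini-Hochberg adjusted p under 0.05 over all tested genes), 1 was higher and 10 were not called. Of all tested genes 20.7% were called lower and 22.6% higher in this comparison. The median log2 fold change, which is on the scale of RPKM + 1 throughout and so understates changes of low genes, was -0.86 over the 43 genes and 0.02 over all tested genes. With Nala none of the 43 was called against NC, where 0% of tested genes were called lower and 0.0619% higher. The helicase gene PIF1 had the largest fall with 2-DG, and the nuclease gene MUS81 was the gene that rose. In these bulk samples fewer cells of a type and less RNA per cell cannot be told apart.

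The promoters below are those of the 4 genes with the largest fall with 2-DG (PIF1, BLM, POLQ and RAD51AP1) and of the 2 genes with the smallest change among those with at least 5 RPKM in NC (PALB2 and PMS2). They are shown so that the windows of strongly and weakly changed genes can be read side by side. Each holds 300 bases, 250 before and 50 from the first start listed in the promoter table on, from RefSeq on GRCh38.p14, and is written 5′ to 3′ on the strand of the gene. Capitals mark matches on either strand to the E2F core (TTCCCGC or TTCGCGC or TTGCCGC or TTGGCGC), the CHR element (TTTGAA) and the CCAAT box (CCAAT). The PIF1 window lies at chr15:64825598-64825897 on the minus strand, and that of BLM at chr15:90717096-90717395 on the plus strand. The start used for PIF1 lies inside its annotated gene, which runs to position 64827062 of chromosome 15, and the other 5 windows lie at the annotated gene starts. The POLQ window lies at chr3:121545939-121546238 on the minus strand, and that of RAD51AP1 at chr12:4538640-4538939 on the plus strand. The PALB2 window lies at chr16:23641261-23641560 on the minus strand, and that of PMS2 at chr7:6009057-6009356 on the minus strand.
PIF1: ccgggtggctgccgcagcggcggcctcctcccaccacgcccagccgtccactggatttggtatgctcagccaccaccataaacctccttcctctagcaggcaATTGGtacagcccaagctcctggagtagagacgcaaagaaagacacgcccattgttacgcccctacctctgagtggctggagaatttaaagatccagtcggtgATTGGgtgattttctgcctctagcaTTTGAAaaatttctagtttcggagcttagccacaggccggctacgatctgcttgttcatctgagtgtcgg
BLM: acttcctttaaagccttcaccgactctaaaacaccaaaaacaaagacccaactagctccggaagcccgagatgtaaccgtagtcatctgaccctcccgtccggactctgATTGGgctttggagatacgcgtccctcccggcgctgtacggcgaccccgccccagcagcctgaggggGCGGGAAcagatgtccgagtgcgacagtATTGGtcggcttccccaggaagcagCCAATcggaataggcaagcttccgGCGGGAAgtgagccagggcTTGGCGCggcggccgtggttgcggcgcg
POLQ: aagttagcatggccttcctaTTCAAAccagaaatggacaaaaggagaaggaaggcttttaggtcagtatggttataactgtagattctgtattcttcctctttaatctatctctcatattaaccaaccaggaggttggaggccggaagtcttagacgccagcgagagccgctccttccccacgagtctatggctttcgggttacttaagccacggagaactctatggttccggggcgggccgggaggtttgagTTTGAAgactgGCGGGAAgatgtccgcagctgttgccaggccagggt
RAD51AP1: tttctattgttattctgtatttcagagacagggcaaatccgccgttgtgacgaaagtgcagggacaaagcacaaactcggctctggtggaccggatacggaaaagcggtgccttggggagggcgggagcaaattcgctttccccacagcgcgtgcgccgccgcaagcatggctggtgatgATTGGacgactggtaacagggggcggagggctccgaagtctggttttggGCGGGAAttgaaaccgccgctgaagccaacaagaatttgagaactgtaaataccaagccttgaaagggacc
PALB2: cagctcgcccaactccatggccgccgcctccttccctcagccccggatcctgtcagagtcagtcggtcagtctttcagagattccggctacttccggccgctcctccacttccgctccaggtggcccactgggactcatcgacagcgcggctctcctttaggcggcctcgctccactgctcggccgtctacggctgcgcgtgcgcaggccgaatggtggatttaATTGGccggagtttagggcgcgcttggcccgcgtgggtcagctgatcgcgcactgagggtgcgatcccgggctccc
PMS2: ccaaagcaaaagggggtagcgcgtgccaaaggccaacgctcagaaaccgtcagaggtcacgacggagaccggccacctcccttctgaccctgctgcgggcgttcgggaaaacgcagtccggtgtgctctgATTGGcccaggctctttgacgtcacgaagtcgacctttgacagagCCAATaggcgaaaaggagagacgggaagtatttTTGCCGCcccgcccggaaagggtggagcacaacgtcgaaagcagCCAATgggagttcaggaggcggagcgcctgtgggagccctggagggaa

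The BLM window held 3 E2F cores and those of POLQ, RAD51AP1 and PMS2 held 1 each, while the windows of PIF1 and PALB2 held none. The CHR element, an element of genes expressed late in the cell cycle, was in the windows of PIF1 and POLQ. Over the 38 genes of the set with an entry, 21 held an E2F core (55.3%), against 21% of 10009 tested genes and 13.1% of all 27305 gene windows. The CHR element was in 15.8% of the set, 9.53% of tested genes and 15.4% of all windows, and the CCAAT box in 50% of the set, 36.6% of tested genes and 35.7% of all windows. A CCAAT box read on the other strand can share letters with the core TTGGCGC. For a gene with several listed starts the first was used, and counting a match in any listed window gave an E2F core in 60.5% of the set and 25.1% of tested genes.

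The 21 genes of the set with an E2F core had a median log2 fold change of -1.19 between 2-DG and NC, and 17 of them were called lower. The 17 genes without one had a median of -0.53, and 11 of them were called lower. Beside the counts called lower in this paragraph stand 20.7% of all tested genes called lower, a share not split by motif. Over all tested genes the medians were -0.02 with and 0.04 without the core. These are counts of letters in 1 window per gene, given with no test, and the PIF1 window, which held no E2F core, does not cover the annotated end where that gene starts. BRCA1, a gene with more than 1 listed start, was counted as without the core by its first listed window. With and without the CHR element the medians of the set were -1.45 and -0.84, with 4 of 6 and 24 of 32 genes called lower. With and without the CCAAT box they were -0.66 and -0.86, with 14 of 19 genes called lower in each case.

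**Figure D1:**
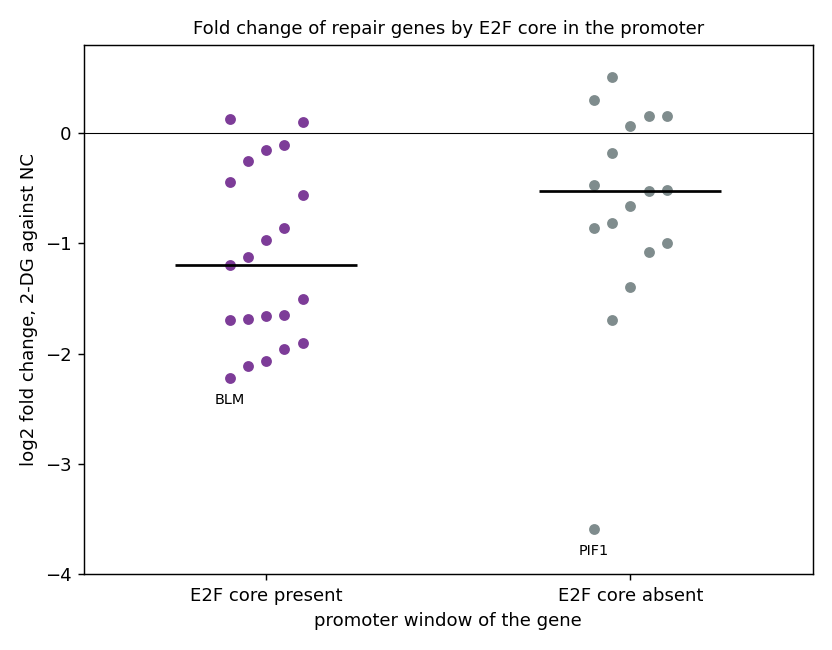
Each point is 1 of the 38 genes with a promoter entry, placed by whether its window holds an E2F core, and the vertical axis is the log2 fold change of RPKM + 1 for 2-DG against NC. Black lines are the medians, -1.19 with and -0.53 without the core; both columns span called and uncalled genes, and PIF1 is the lowest point among windows without it.

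**Figure D2:**
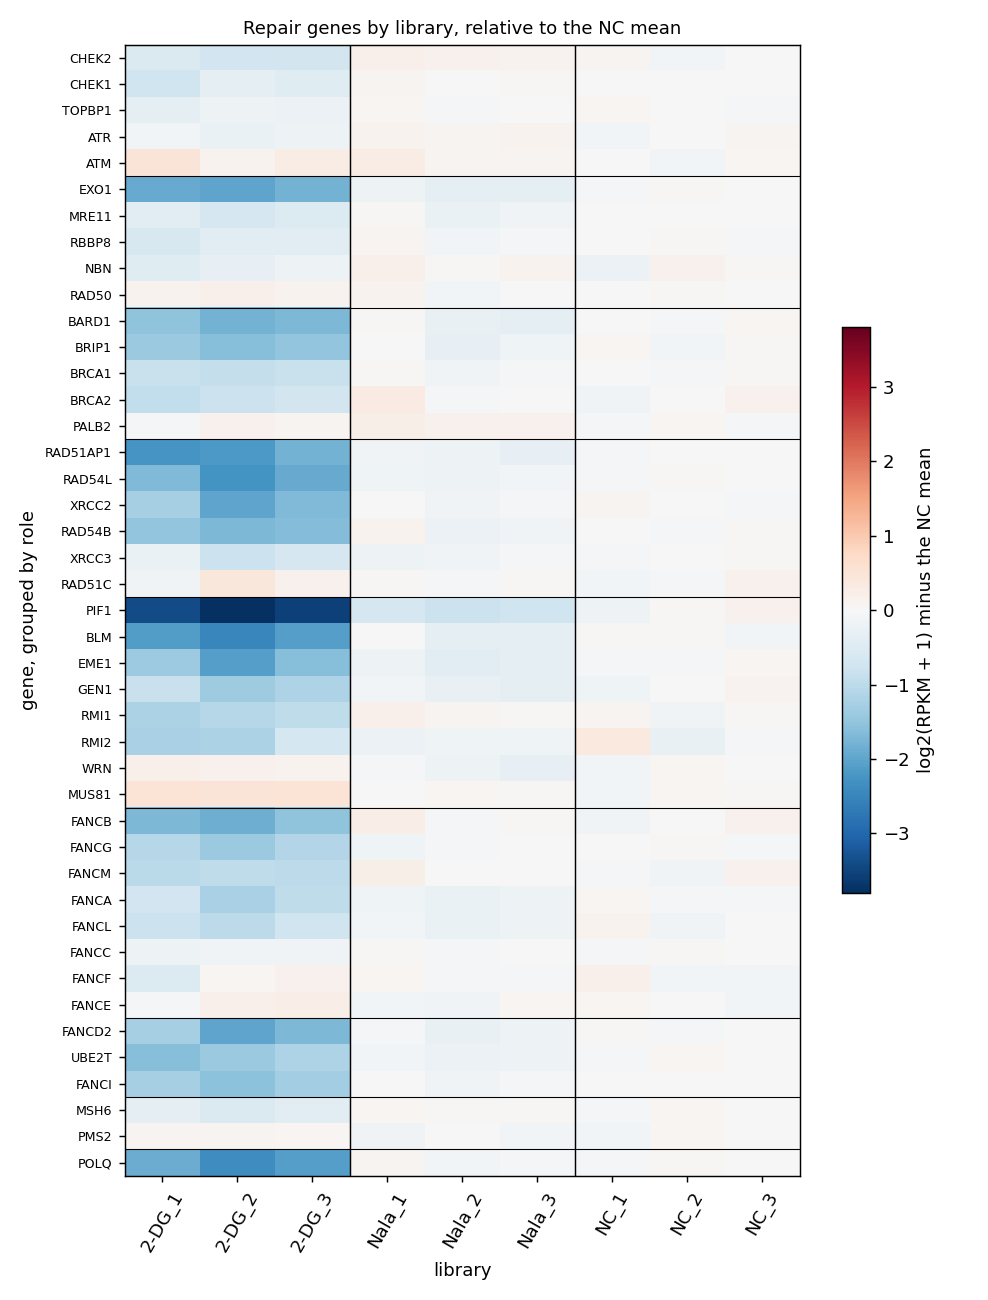
Each row is 1 of the 43 genes, grouped by role in the order of the text, and each column a library; colour is log2(RPKM + 1) minus the mean of the 3 NC libraries, from blue (lower) to red (higher). The 2-DG columns are blue for most rows and reddest in the MUS81 row and in ATM and RAD51C of single libraries, and PIF1 is the row where the Nala columns are clearly blue too.

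The kinases that signal damage, taken with the activator TOPBP1, had the smallest median change among the roles with 5 or more genes. Of these 5 genes 3 were called lower with 2-DG and none higher, at a median log2 fold change of -0.26. Counts by role here and below stand beside 20.7% of all tested genes called lower and 22.6% called higher. CHEK2, the checkpoint kinase downstream of ATM, lay at 20.05, 17.7 and 18.0 RPKM in the 2-DG libraries, at 34.3, 33.3 and 33.0 RPKM in the Nala libraries and at 32.2, 27.7 and 30.1 RPKM in the NC libraries. The 2-DG libraries lay below every other library, and CHEK2 fell with 2-DG by a log2 fold change of -0.66 (SE 0.0895, adjusted p = 0.000431). CHEK1, the checkpoint kinase downstream of ATR, lay at 8.50, 11.6 and 10.7 RPKM with 2-DG, at 16.2, 15.4 and 15.7 RPKM with Nala and at 15.2, 14.9 and 15.4 RPKM in NC. It fell with 2-DG by a log2 fold change of -0.53 (SE 0.118, adjusted p = 0.0062), with no overlap with NC. TOPBP1, the activator of ATR, averaged 34.9 ± 1.92 RPKM with 2-DG and 41.9 ± 1.87 RPKM in NC (SD, n = 3 each), a log2 fold change of -0.26 (adjusted p = 0.0219). That call was lost without replicate 3 of 2-DG (adjusted p = 0.0558) and without NC replicate 1 or 2 (0.0623 and 0.0505).

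ATR itself lay at 16.7, 14.9 and 15.5 RPKM with 2-DG, at 19.9, 19.2 and 19.6 RPKM with Nala and at 16.7, 17.9 and 19.4 RPKM in NC. The 2-DG and NC libraries overlapped slightly, and the 95% interval of the log2 fold change ran from -0.39 to 0.03. ATM, the kinase that responds to double-strand breaks, averaged 16.9 ± 2.12 RPKM with 2-DG and 13.5 ± 0.874 RPKM in NC (SD, n = 3 each). Every 2-DG library of ATM was above every NC library, but its log2 fold change of 0.30 missed the threshold (adjusted p = 0.0628). It passed with Nala replicates 2 and 3 kept apart (adjusted p = 0.0436), with voom on the recovered reads (0.019), and without 2-DG replicate 2 (0.0459).

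In end resection 4 of 5 genes were lower with 2-DG, none was higher and the median log2 fold change was -0.47. EXO1, an exonuclease that lengthens the resected strand and also serves mismatch repair, lay at 8.01, 7.42 and 8.65 RPKM with 2-DG, at 28.3, 25.04 and 25.2 RPKM with Nala and at 31.4, 33.6 and 33.0 RPKM in NC. The 3 groups did not overlap, and EXO1 fell with 2-DG by a log2 fold change of -1.90 (SE 0.0939, adjusted p = 1.71e-06). MRE11, the nuclease that starts resection, lay at 23.2, 19.9 and 21.5 RPKM with 2-DG, at 32.5, 26.1 and 28.5 RPKM with Nala and at 31.7, 31.4 and 30.6 RPKM in NC. Its 2-DG libraries were below all others, and it fell by a log2 fold change of -0.52 (SE 0.0939, adjusted p = 0.00209).

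RAD50, the structural partner of MRE11, lay at 22.3, 23.3 and 22.3 RPKM with 2-DG, at 22.2, 18.6 and 20.4 RPKM with Nala and at 19.9, 20.7 and 20.1 RPKM in NC. Its 2-DG libraries lay above those of NC, yet the gene was not called (log2 fold change 0.16, 95% interval -0.03 to 0.34, adjusted p = 0.167). The third subunit, NBN, averaged 22.8 ± 2.27 RPKM with 2-DG and 28.8 ± 4.04 RPKM in NC (SD, n = 3 each). NBN was called lower (log2 fold change -0.33, adjusted p = 0.0483) although 1 NC library, at 24.5 RPKM, lay below the highest 2-DG library at 24.97 RPKM. The NBN call was lost in 9 of the 20 alternatives, with an adjusted p of 0.111 without 2-DG replicate 1, 0.0971 without 2-DG replicate 2, 0.157 without NC replicate 2 and 0.131 without NC replicate 3. RBBP8, the CtIP cofactor of MRE11, averaged 16.0 ± 1.29 RPKM with 2-DG and 22.5 ± 0.82 RPKM in NC (SD, n = 3 each), a log2 fold change of -0.47 (adjusted p = 0.004).

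Of the BRCA1 and BRCA2 complexes 4 of 5 genes were lower with 2-DG and none was higher, at a median log2 fold change of -0.86. BARD1, the obligate partner of BRCA1 in its ubiquitin ligase, lay at 4.66, 3.66 and 3.95 RPKM with 2-DG, at 15.9, 12.3 and 11.5 RPKM with Nala and at 15.2, 14.5 and 16.3 RPKM in NC. It fell by a log2 fold change of -1.68 (SE 0.134, adjusted p = 2.08e-05), with no overlap between 2-DG and NC. BRIP1, a helicase bound by BRCA1, lay at 2.86, 2.34 and 2.57 RPKM with 2-DG, at 9.11, 7.24 and 8.03 RPKM with Nala and at 9.61, 8.53 and 9.39 RPKM in NC. The 2-DG libraries again lay below the rest, and BRIP1 fell by a log2 fold change of -1.50 (SE 0.125, adjusted p = 2.67e-05).

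PALB2, the bridge between BRCA1 and BRCA2, lay at 16.9, 19.8 and 19.1 RPKM with 2-DG, at 20.8, 19.7 and 19.8 RPKM with Nala and at 17.1, 18.8 and 17.2 RPKM in NC. The 2-DG and NC libraries of PALB2 overlapped, with a log2 fold change of 0.07 and a 95% interval from -0.15 to 0.28. BRCA1 itself fell, to 13.4 ± 0.318 RPKM with 2-DG against 25.04 ± 0.822 RPKM in NC (SD, n = 3 each; log2 fold change -0.86, adjusted p = 6.58e-05). BRCA2, a mediator of strand invasion, averaged 2.13 ± 0.285 RPKM with 2-DG and 4.50 ± 0.538 RPKM in NC (SD, n = 3 each; log2 fold change -0.82, adjusted p = 0.00249).

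Among the factors of strand invasion RAD51AP1, RAD51C, RAD54L, RAD54B, XRCC2 and XRCC3, 5 of 6 genes were lower with 2-DG and none was higher, and the median log2 fold change of -1.64 was the lowest of the roles with more than 3 genes. RAD51AP1, which helps strands to pair, lay at 5.40, 5.59 and 7.73 RPKM with 2-DG, at 26.2, 25.1 and 23.5 RPKM with Nala and at 28.4, 29.1 and 29.7 RPKM in NC. The 3 groups did not overlap, and RAD51AP1 fell with 2-DG by a log2 fold change of -2.07 (SE 0.126, adjusted p = 4.52e-06). RAD54L, a motor that works on the paired DNA, lay at 9.64, 6.08 and 7.99 RPKM with 2-DG, at 29.3, 29.04 and 30.5 RPKM with Nala and at 31.9, 33.8 and 33.5 RPKM in NC. RAD54L fell with 2-DG by a log2 fold change of -1.96 (SE 0.137, adjusted p = 1.01e-05), and its 3 groups did not overlap either.

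RAD51C, the gene of this role that was not called, lay at 19.8, 30.1 and 24.5 RPKM with 2-DG, 22.7, 21.3 and 22.9 RPKM with Nala and 20.4, 21.0 and 24.7 RPKM in NC. The 2-DG libraries were spread on both sides of the NC range, and the 95% interval of the log2 fold change ran from -0.17 to 0.47. XRCC2, a factor of the same step, averaged 9.53 ± 2.72 RPKM with 2-DG and 31.4 ± 1.87 RPKM in NC (SD, n = 3 each; log2 fold change -1.65, adjusted p = 7.46e-05). XRCC3, which forms a pair with RAD51C, averaged 26.7 ± 5.84 RPKM with 2-DG and 39.4 ± 1.89 RPKM in NC (SD, n = 3 each; log2 fold change -0.57, adjusted p = 0.00786). RAD54B, a relative of RAD54L, averaged 2.33 ± 0.248 RPKM with 2-DG and 9.23 ± 0.407 RPKM in NC (SD, n = 3 each; log2 fold change -1.62, adjusted p = 2.08e-05).

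The helicases and enzymes of joint molecules held both extremes of the set, with 6 of 8 genes lower with 2-DG, 1 higher and a median log2 fold change of -1.11. PIF1, a helicase that unwinds G-quadruplexes and aids synthesis during recombination, lay at 2.41, 1.48 and 2.08 RPKM with 2-DG, at 22.2, 19.5 and 20.2 RPKM with Nala and at 30.1, 35.8 and 39.1 RPKM in NC. The 3 groups did not overlap, and with 2-DG the mean of PIF1 was 5.69% of that in NC. PIF1 fell by a log2 fold change of -3.59 (SE 0.147, adjusted p = 8.67e-07). BLM, the helicase that dissolves double Holliday junctions, lay at 3.68, 2.64 and 3.73 RPKM with 2-DG, at 18.9, 14.9 and 14.6 RPKM with Nala and at 19.8, 19.9 and 17.9 RPKM in NC. Its 2-DG libraries were far below all others, and it fell by a log2 fold change of -2.23 (SE 0.142, adjusted p = 6.03e-06).

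RMI1 and RMI2, which bind BLM in the dissolving complex, were lower as well. RMI1 averaged 5.57 ± 0.512 RPKM with 2-DG and 12.9 ± 1.16 RPKM in NC (SD, n = 3 each; log2 fold change -1.08, adjusted p = 0.000105). RMI2 averaged 8.16 ± 2.07 RPKM with 2-DG and 17.9 ± 4.59 RPKM in NC (SD, n = 3 each; log2 fold change -1.04, adjusted p = 0.00249). GEN1, a nuclease that cuts Holliday junctions, averaged 5.85 ± 1.22 RPKM with 2-DG and 13.9 ± 1.46 RPKM in NC (SD, n = 3 each; log2 fold change -1.13, adjusted p = 0.000378).

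WRN, a helicase related to BLM, lay at 13.4, 13.0 and 12.7 RPKM with 2-DG, at 11.2, 9.98 and 9.18 RPKM with Nala and at 10.8, 12.3 and 11.8 RPKM in NC. All 3 of its 2-DG libraries lay above those of NC without a call (log2 fold change 0.16, 95% interval -0.08 to 0.39, adjusted p = 0.252). MUS81, the catalytic subunit of a nuclease that cuts branched DNA, lay at 67.6, 66.3 and 67.2 RPKM with 2-DG, at 47.4, 49.5 and 47.9 RPKM with Nala and at 43.3, 48.9 and 48.2 RPKM in NC. MUS81 rose with 2-DG by a log2 fold change of 0.51 (SE 0.068, adjusted p = 0.000395), with no overlap. EME1, the partner that MUS81 needs for cutting, fell to 7.61 ± 2.08 RPKM with 2-DG against 26.4 ± 1.26 RPKM in NC (SD, n = 3 each; log2 fold change -1.70, adjusted p = 6.62e-05).

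**Figure D3:**
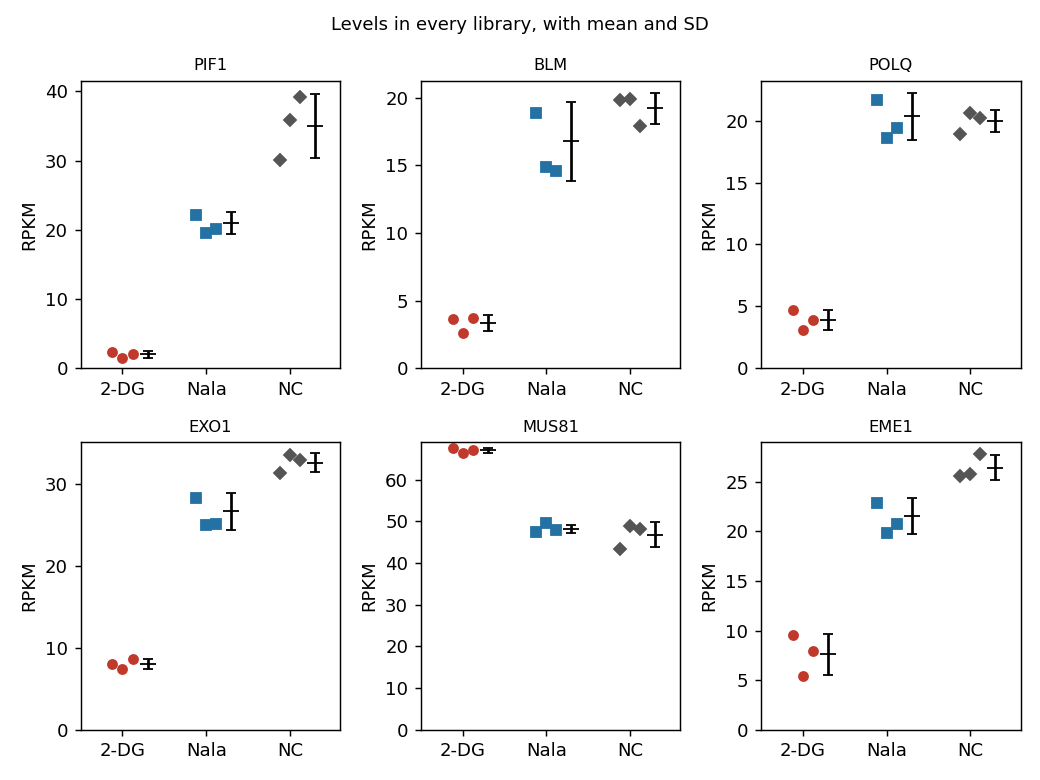
Levels in RPKM of 6 genes in every library of the 3 groups, with the mean and SD beside the points (n = 3 for 2-DG and NC, n = 2 for Nala, whose replicates 2 and 3 were counted as 1 sample). PIF1, BLM, POLQ, EXO1 and EME1 are lower in all 3 2-DG libraries than in NC, MUS81 is higher, and the Nala points of PIF1, EXO1 and EME1 lie between the other groups.

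In the Fanconi core complex 5 of 8 genes were lower with 2-DG and none was higher, at a median log2 fold change of -0.92. FANCB, a subunit of its catalytic module, lay at 3.11, 2.75 and 3.71 RPKM with 2-DG, at 15.1, 12.2 and 13.0 RPKM with Nala and at 11.3, 12.3 and 14.0 RPKM in NC. FANCB fell by a log2 fold change of -1.70 (SE 0.136, adjusted p = 2.16e-05), with 2-DG below all other libraries. FANCG, which binds FANCA, lay at 25.4, 20.05 and 25.0 RPKM with 2-DG, at 48.5, 51.8 and 53.6 RPKM with Nala and at 55.2, 56.6 and 52.5 RPKM in NC. It fell by a log2 fold change of -1.19 (SE 0.098, adjusted p = 2.46e-05), again without overlap. FANCF, an adaptor of the complex, lay at 2.58, 4.39 and 4.74 RPKM with 2-DG, at 4.44, 3.91 and 3.95 RPKM with Nala and at 4.97, 3.78 and 3.85 RPKM in NC. The 2-DG and NC ranges of FANCF overlapped, with a 95% interval of the log2 fold change from -0.55 to 0.33, and at 53 reads or more per library FANCF was the gene with the fewest reads in any library after PIF1.

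FANCL, the ubiquitin ligase of the complex, averaged 13.5 ± 1.28 RPKM with 2-DG and 25.4 ± 2.42 RPKM in NC (SD, n = 3 each; log2 fold change -0.86, adjusted p = 0.000264). FANCA, partner of FANCG, averaged 17.6 ± 3.18 RPKM with 2-DG and 35.3 ± 1.75 RPKM in NC (SD, n = 3 each; log2 fold change -0.98, adjusted p = 0.000271). FANCM, a translocase that brings the complex to DNA, averaged 2.96 ± 0.0779 RPKM with 2-DG and 6.96 ± 0.888 RPKM in NC (SD, n = 3 each; adjusted p = 0.000366). The adaptors FANCC and FANCE, which bind FANCF, were not called. FANCC averaged 10.7 ± 0.253 RPKM with 2-DG and 12.03 ± 0.371 RPKM in NC (SD, n = 3 each), with every 2-DG library below NC and an adjusted p of 0.197. FANCE averaged 17.2 ± 2.27 RPKM with 2-DG and 15.6 ± 0.962 RPKM in NC (SD, n = 3 each), with overlapping libraries.

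All 3 genes of the step that the core complex carries out, the marking of FANCD2 and FANCI, were lower with 2-DG. FANCD2 lay at 11.0, 6.26 and 7.99 RPKM with 2-DG, at 26.4, 22.8 and 24.4 RPKM with Nala and at 29.1, 26.7 and 28.4 RPKM in NC. It fell by a log2 fold change of -1.66 (SE 0.163, adjusted p = 7.06e-05), and 2-DG replicate 1 was the highest of its group. UBE2T lay at 18.1, 21.2 and 25.1 RPKM with 2-DG, at 54.2, 49.1 and 49.99 RPKM with Nala and at 55.0, 60.9 and 57.7 RPKM in NC. UBE2T fell by a log2 fold change of -1.40 (SE 0.112, adjusted p = 2.13e-05), with 2-DG below all other libraries. FANCI lay at 22.5, 18.2 and 21.4 RPKM with 2-DG, at 56.1, 49.7 and 52.03 RPKM with Nala and at 55.7, 54.9 and 54.5 RPKM in NC. The 2-DG libraries of FANCI did not overlap with the rest, and it fell by a log2 fold change of -1.37 (SE 0.0897, adjusted p = 6.78e-06).

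Of the 2 mismatch repair genes of the set 1 was called lower with 2-DG. MSH6, which recognises mispaired bases, lay at 43.7, 38.5 and 42.7 RPKM with 2-DG, at 59.7, 59.01 and 58.3 RPKM with Nala and at 55.0, 59.7 and 56.3 RPKM in NC. It fell by a log2 fold change of -0.45 (SE 0.0721, adjusted p = 0.00117), without overlap. PMS2, a nuclease of mismatch repair, lay at 20.9, 21.0 and 20.5 RPKM with 2-DG, at 17.5, 19.2 and 18.1 RPKM with Nala and at 17.9, 20.6 and 19.7 RPKM in NC. The PMS2 libraries of 2-DG and NC overlapped, with a 95% interval from -0.10 to 0.29, and near-identical copies make its level uncertain. Of these copies PMS2P3 lay between 5.17 and 8.34 RPKM and PMS2CL between 3.11 and 5.18 RPKM over the 9 libraries.

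POLQ, the polymerase of an end joining route that competes with recombination, lay at 4.70, 3.10 and 3.89 RPKM with 2-DG, at 21.7, 18.6 and 19.4 RPKM with Nala and at 19.0, 20.6 and 20.3 RPKM in NC. The 2-DG libraries were far below both other groups, which overlapped. POLQ fell with 2-DG by a log2 fold change of -2.11 (SE 0.133, adjusted p = 5.78e-06).

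**Figure D4:**
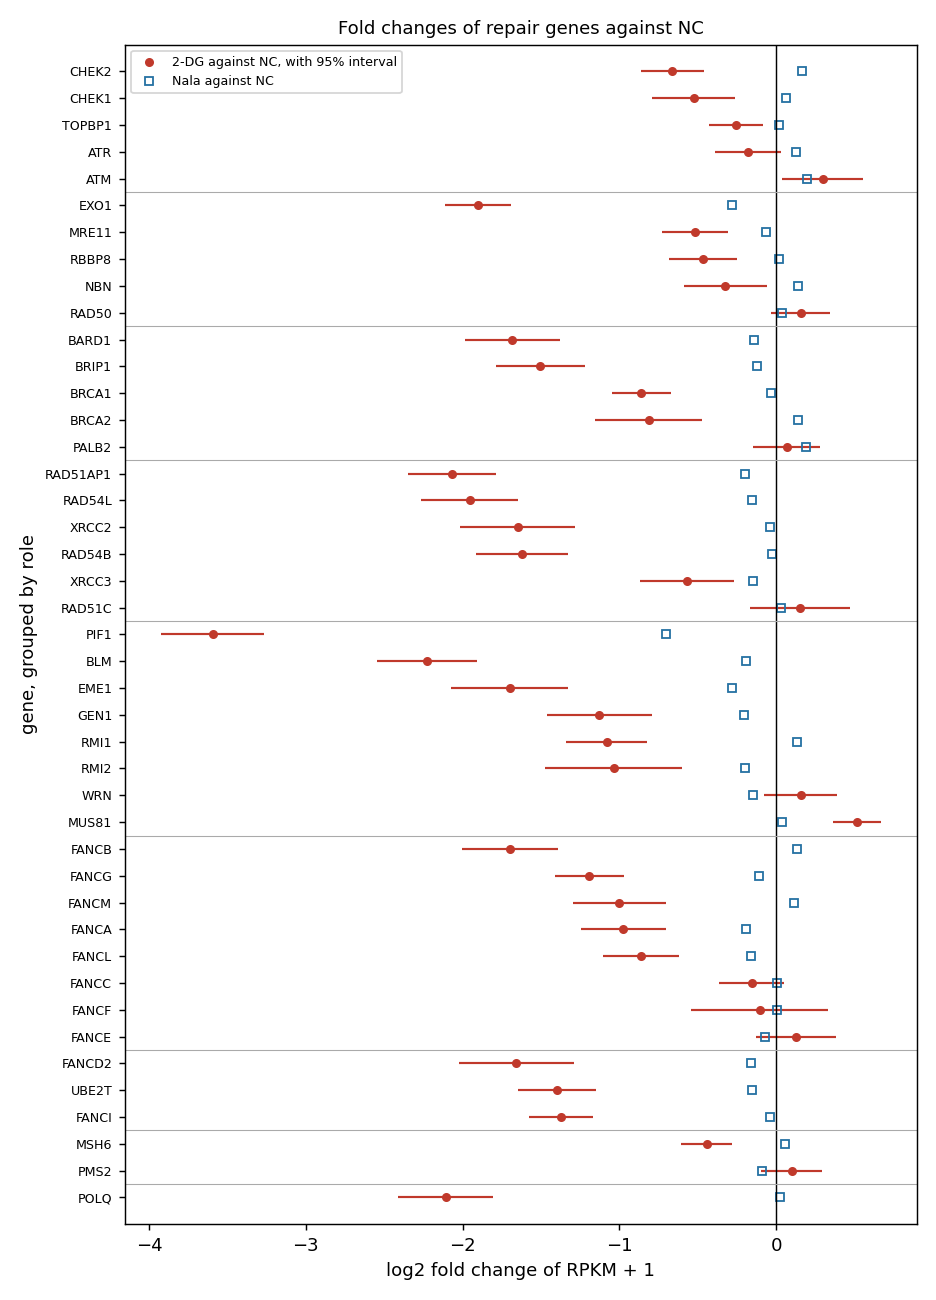
Log2 fold changes of RPKM + 1 for the 43 genes, grouped by role, with filled circles and 95% intervals for 2-DG against NC and open squares for Nala against NC. Most circles lie left of 0, from -3.59 for PIF1 to 0.51 for MUS81, while the squares run from -0.70 for PIF1 to 0.20 for ATM.

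Of the 43 genes, 20 were called lower with a log2 fold change of -1 or less, against 5.12% of tested genes. In 32 genes every 2-DG library lay below every NC library, against 25.0% of tested genes, and in 4 (ATM, RAD50, WRN and MUS81) every one lay above, against 27.1%. The 2-DG libraries differed among themselves in order. Among the 32 genes called lower, 2-DG replicate 2 was the lowest of its group in 22 and replicate 1 in 10, and replicate 3 was the lowest in none. Summed over these 32 genes the level was 414.4, 363.2 and 411.4 RPKM in the 2-DG libraries, 851.4, 777.6 and 800.5 RPKM in the Nala libraries and 872.7, 875.2 and 881.7 RPKM in the NC libraries. These sums describe genes chosen by their call and carry no test.

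The balance between partners that act as a pair or in 1 pathway step was examined as the ratio of their RPKM within a library. The ratio of MUS81 to EME1 was 7.099, 12.3 and 8.49 in the 2-DG libraries, 2.07, 2.50 and 2.31 in the Nala libraries and 1.69, 1.90 and 1.73 in the NC libraries. The ratio of BRCA1 to BARD1 averaged 3.29 ± 0.331 with 2-DG and 1.64 ± 0.0508 in NC (SD, n = 3 each), and that of PALB2 to BRCA2 averaged 8.80 ± 0.762 with 2-DG and 3.97 ± 0.506 in NC. The ratio of RAD50 to MRE11 averaged 1.06 ± 0.108 with 2-DG and 0.647 ± 0.0181 in NC (SD, n = 3 each). For FANCE to FANCG the means were 0.745 ± 0.163 with 2-DG and 0.285 ± 0.0113 in NC (SD, n = 3 each). In these 5 of the 7 pairs examined the 2-DG and NC libraries did not overlap, which gave a 2-sided exact permutation p of 0.10, the smallest that 3 against 3 allows. The ratio of FANCI to FANCD2 averaged 2.54 ± 0.45 with 2-DG and 1.96 ± 0.0781 in NC, and that of RAD51C to XRCC3 averaged 0.985 ± 0.389 with 2-DG and 0.558 ± 0.0384 in NC. For these 2 pairs the libraries overlapped (2-sided exact permutation p = 0.20, n = 3 each). No pair could pass a threshold of 0.05 in this design. The 7 pairs were picked by hand, and other pairs were not examined. Their ratios come from the same libraries as the calls above. Where partners differed in their calls, a shifted ratio follows largely from those calls and is no separate support.

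**Figure D5:**
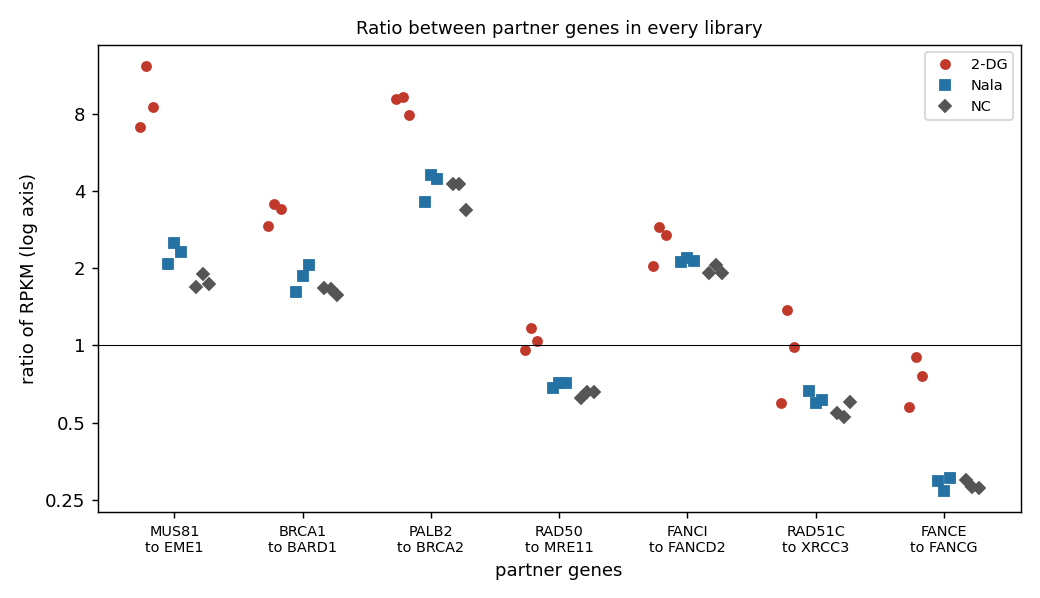
Ratio of RPKM between 7 pairs of partner genes in every library, on a log axis, for 2-DG (circles), Nala (squares) and NC (diamonds). The MUS81 to EME1 ratio lies between 7.099 and 12.3 with 2-DG and between 1.69 and 1.90 in NC, and the FANCI to FANCD2 and RAD51C to XRCC3 ratios overlap.

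Against NC, Nala gave no call among the 43 genes, and the median log2 fold change was -0.04 over the set and 0.01 over all tested genes. At an unadjusted p under 0.05 there were 2 genes by limma, PIF1 and EXO1, where 5.61% of tested genes passed that level. PIF1 averaged 21.02 ± 1.63 RPKM with Nala (n = 2) and 35.02 ± 4.57 RPKM in NC (n = 3), a log2 fold change of -0.70 with an adjusted p of 0.279. With voom on the recovered reads PIF1 was called lower (log2 fold change -0.75, adjusted p = 0.0185). EXO1 averaged 26.7 ± 2.27 RPKM with Nala (n = 2) and 32.7 ± 1.15 RPKM in NC (n = 3), a log2 fold change of -0.28 with an adjusted p of 0.751. Every Nala library lay below every NC library in 9 of the 43 genes (EXO1, RAD51AP1, XRCC3, RAD54L, PIF1, EME1, FANCA, UBE2T and FANCD2), against 8.03% of tested genes. Every one lay above in 4 (ATM, CHEK1, CHEK2 and PALB2), against 10.2% of tested genes. Replicate 1 of Nala was the highest of its group in 35 of the 43 genes.

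With Nala set against 2-DG, 32 of the 43 genes were higher and 1, MUS81, was lower, where 17.9% of tested genes were called higher and 18.0% lower. This comparison shares its 2-DG libraries with the one against NC. By the series design its groups also differ in time, 24 h for Nala and 48 h for 2-DG. The median log2 fold change was 0.83 over the set and -0.01 over all tested genes. PIF1 was 2.89 higher on the log2 scale (adjusted p = 6.54e-06), POLQ 2.14 higher (adjusted p = 1.86e-05) and BLM 2.03 higher (adjusted p = 3.17e-05). ATR was called here, at 19.7 ± 0.355 RPKM with Nala (n = 2) and 15.7 ± 0.906 RPKM with 2-DG (n = 3; adjusted p = 0.0453), a call lost in 8 of the 20 alternatives. XRCC3 was not called here (adjusted p = 0.0549), at 35.4 ± 1.56 RPKM with Nala (n = 2) and 26.7 ± 5.84 RPKM with 2-DG (n = 3), but was called higher in 6 of the 20 alternatives, with an adjusted p as low as 0.00215 without 2-DG replicate 1. Without Nala replicate 1, which leaves 1 Nala sample that is assumed to vary like the other groups, the calls of CHEK1, MRE11, NBN, RBBP8, RMI2, TOPBP1 and ATR in this comparison were lost, and 25 genes were called higher.

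All 12 listed markers of proliferation were lower with 2-DG, at a median log2 fold change of -1.69, and their summed level lay between 236 and 269.1 RPKM with 2-DG, between 606.3 and 627.3 RPKM with Nala and between 661.6 and 711.6 RPKM in NC. MKI67, a marker of cycling cells, averaged 8.99 ± 2.63 RPKM with 2-DG and 67.03 ± 1.34 RPKM in NC (SD, n = 3 each), and CCNA2, a cyclin of S phase and later, averaged 6.66 ± 0.768 RPKM with 2-DG and 35.6 ± 4.04 RPKM in NC. All 12 listed p53 targets were higher with 2-DG, at a median of 1.47, among them TP53INP1 (log2 fold change 2.34, adjusted p = 2.87e-05) and SESN2 (1.81, adjusted p = 9.78e-06). Of all tested genes 20.7% were called lower and 22.6% higher with 2-DG. Neither list had a call with Nala against NC, where 0% of tested genes were called lower and 0.0619% higher. The part of proliferation in the changes of the repair genes was not tested.

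Other repair genes, listed by pathway and not members of the set, were counted in the same fit. Of all tested genes 20.7% were called lower and 22.6% higher with 2-DG, and the counts below are to be read beside these shares. Of 34 tested other genes of homologous recombination 14 were lower and 4 higher with 2-DG, at a median log2 fold change of -0.29. PARPBP, which restrains recombination, averaged 3.504 ± 0.486 RPKM with 2-DG and 12.8 ± 0.938 RPKM in NC (SD, n = 3 each; adjusted p = 1.79e-05), and MND1, a meiotic recombination factor, fell by 1.61 on the log2 scale (adjusted p = 0.000163). Of 15 other Fanconi genes 6 were lower and 3 higher, at a median of -0.08, with DCLRE1B, a nuclease also known as Apollo, at -0.92 and FAAP24, the partner of FANCM, at -0.85. Of 16 other mismatch repair genes 10 were lower and 1 higher, at a median of -0.38, with the clamp loader subunits RFC3 at -1.22 and RFC5 at -0.84. Of 19 other damage signalling genes 11 were lower and 1 higher, at a median of -0.42, with the phosphatase CDC25C at -2.61 and CLSPN, the claspin that activates CHEK1, at -1.54.

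Pathways that do not copy from a sister chromatid were counted too, beside the same shares of all tested genes (20.7% lower and 22.6% higher). Of 10 genes of end joining 5 were lower and 3 higher with 2-DG, at a median log2 fold change of -0.17. XRCC4, the partner of the ligase of this pathway, averaged 8.404 ± 2.14 RPKM with 2-DG and 15.8 ± 0.454 RPKM in NC (SD, n = 3 each; adjusted p = 0.00235), while the polymerase POLL averaged 25.4 ± 2.57 RPKM with 2-DG and 15.3 ± 0.741 RPKM in NC (adjusted p = 0.00112). Of 23 genes of base excision and single-strand break repair 10 were lower and 3 higher, at a median of -0.10, with the glycosylases NEIL3 at -2.20 and UNG at -0.78. Of 19 genes of nucleotide excision repair 2 were lower and 3 higher, both below the shares of all tested genes, at a median of 0.06. XPC, its damage sensor, rose to 64.5 ± 1.06 RPKM with 2-DG against 39.1 ± 2.01 RPKM in NC (SD, n = 3 each; adjusted p = 5.30e-05), and ERCC8 was at -0.46. None of these lists had a call with Nala against NC, where 0% of tested genes were called lower and 0.0619% higher. Differences between pathways were not tested.

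Neighbouring genes that start close by on the opposite strand offered a comparison within a locus. By the first listed starts, 17 of the 38 genes with an entry had such a neighbour within 1000 bases, 44.7% against 24.0% of tested genes. Of 10 neighbours that were tested 2 were lower and 3 higher with 2-DG, close to the shares of all tested genes (20.7% lower and 22.6% higher), so the count shows nothing particular to these neighbours. EME1, which fell, starts 45 bases from MRPL27, a mitochondrial ribosomal protein gene at 16.1 ± 3.30 RPKM with 2-DG and 14.8 ± 1.42 RPKM in NC (SD, n = 3 each; log2 fold change 0.10, adjusted p = 0.631). FANCB, which also fell, starts 352 bases from MOSPD2, which rose to 20.4 ± 1.81 RPKM with 2-DG against 15.9 ± 2.15 RPKM in NC (SD, n = 3 each; log2 fold change 0.34, adjusted p = 0.0408). ATM, which was not called, starts 429 bases from NPAT, a coactivator of histone genes that fell to 9.02 ± 0.468 RPKM with 2-DG against 13.3 ± 1.04 RPKM in NC (SD, n = 3 each; log2 fold change -0.51, adjusted p = 0.00432). GEN1 and its neighbour SMC6, 59 bases away, were both lower, SMC6 by a log2 fold change of -0.37 (adjusted p = 0.0168). The annotated genes of GEN1 and SMC6 overlap on opposite strands. Whether counting used strand is not stated, so their levels may share reads. DCTN5 beside PALB2 was higher (log2 fold change 0.33, adjusted p = 0.0114). NBR1, beside the first listed start of BRCA1, was higher too (log2 fold change 0.53, adjusted p = 0.00235). BRCA1 has more than 1 listed start, and NBR2 (mean 14.2 RPKM) overlaps its annotated gene on the opposite strand. Which start of BRCA1 was in use was not tested.

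Some levels may be shared with other genes, since the sources used here do not say whether counting used strand. In 13 of the 43 genes the RefSeq gene overlaps another gene with a mean of 5 RPKM or more. Among them are XRCC3 with KLC1 (47.9 RPKM), RAD54L with LRRC41 (48.0 RPKM) and RMI1 with HNRNPK (57.3 RPKM). EME1 overlaps LRRC59 (69.9 RPKM) and FANCI overlaps POLG (46.9 RPKM). MUS81, the gene called higher with 2-DG, overlaps EFEMP2 (9.26 RPKM). The levels of these 13 genes are uncertain to that extent.

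The 9 libraries held between 6199778 and 6653130 counted reads, of which 16078 to 16963 fell on the 43 genes in the 2-DG libraries, 26100 to 28010 in the Nala libraries and 26870 to 28025 in the NC libraries. The hepatocyte markers APOB and TF had highest values of 0.011 and 0.109 RPKM over the 9 libraries, while HNF4A lay between 1.41 and 3.31 RPKM and CEBPA between 14.01 and 33.9 RPKM. Of 3 tested fibroblast markers COL3A1 and PDGFRB were lower with 2-DG and COL1A1 was not called. COL1A1 lay between 26.1 and 59.1 RPKM over the 9 libraries, while DCN and LUM were at most at 1.27 and 0.22 RPKM. The fibroblast list summed to 33.2 to 50.9 RPKM with 2-DG, 60.5 to 69.9 RPKM with Nala and 44.6 to 85.4 RPKM in NC. Among immune markers CD68 was lower, at 10.4 ± 2.90 RPKM with 2-DG and 21.9 ± 4.53 RPKM in NC (SD, n = 3 each; log2 fold change -1.02, adjusted p = 0.00325), and PTPRC, which marks blood cells in general, was at most at 0.0593 RPKM in any library. The endothelial list summed to 1.79 to 2.17 RPKM with 2-DG, 2.30 to 4.54 RPKM with Nala and 1.33 to 7.91 RPKM in NC, nearly all from CDH5, and its 1 tested gene was not called. The part of such markers in the results was not tested.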

How the data were processed

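Levels of RNA were taken from 1 table of 17808 genes with a column per library. Its RPKM values were deposited by the authors; per the submitters' processing notes the build was hg38 and the tools for all assays were STAR 2.7.6a, RSEM 1.2.8, HISAT2 2.1.0, fastp 0.23.1, HOMER 4.8.3, DESeq, MACS2 2.2.7.1 and Bowtie2 2.2.5. The sources used here do not say which of them made the RPKM values or whether strand was used. Groups and replicate numbers came from the library names in the labels.

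Whole reads were recovered from the steps of the RPKM values (100% of genes within 0.0001 reads), which gave the counted totals. Replicates were compared on these reads by chi-square over genes averaging 10 reads or more, and Nala replicates 2 and 3 were averaged, leaving 8 samples. Genes reaching 1 RPKM in 3 or more libraries were tested on log2(RPKM + 1), all 3 groups in one fit, using the intensity trend of limma 3.58.1 under R 4.3.3. P-values were adjusted by Benjamini-Hochberg over the 12922 tested genes, and 0.05 was the threshold. Intervals are 95% intervals of that fit. The fit was tried on simulated data with the same spread in all libraries. The replicate pairs here differed in spread, so that trial does not show how the fit performs on these data. Same-numbered libraries did not deviate together (correlations -0.119 to 0.077), so no pairing was used.

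The members and gene lists were chosen with earlier results of these data known. Values in every library are given, within a role, for the 2 genes with the largest and the 1 with the smallest absolute change between 2-DG and NC, and for genes called higher with 2-DG or called with Nala. Other genes of a list are named for the 2 largest called changes. Positions, neighbours and promoters come from RefSeq on GRCh38.p14 by symbol, where all 43 matched and 38 had a promoter entry. A promoter is 250 bases before and 50 from the start on. Of the 20 alternatives each changed the pseudocount (0.1), the filter (none or 5 RPKM), the scaling, the trend, the samples fitted, or the test (voom on recovered reads), kept the Nala pair apart, kept it apart with the replicate number as a block, or left out 1 library. The 8 samples from ChIP-seq or ATAC-seq were left out, since levels of RNA were compared. Some marker genes are not reported here.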

Additional observations from a re-analysis of the deposited data

How the results depend on the processing

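Of the 33 calls between 2-DG and NC 31 held under every one of the 20 alternatives that tested them, NBN and TOPBP1 being the others, and the number of genes called lower lay between 30 and 32. With Nala against 2-DG 26 of 33 calls held likewise, the others being ATR, CHEK1, MRE11, NBN, RBBP8, RMI2 and TOPBP1. BRCA2, which is among the calls that held in both comparisons, was removed by the filter of 5 RPKM and not tested there. Leaving out Nala replicate 1 left 1 Nala sample, assumed to vary like the other groups. The genes called higher with 2-DG numbered 2, ATM being added to MUS81, with Nala replicates 2 and 3 kept apart, with voom on the recovered reads and with the replicate block fitted with the Nala pair apart, and 1 to 2 with 1 library left out. The median between 2-DG and NC was -1.01 at a pseudocount of 0.1 and -1.02 with voom. With Nala against NC 1 gene (PIF1) was called lower with voom and none under the other alternatives. With Nala against 2-DG 2 genes were called lower with quantile normalization, no intensity trend, the Nala pair kept apart, voom and the replicate block with the pair apart, and 1 to 2 with 1 library left out, where the median lay between 0.78 and 0.88. FANCF changed sign without 2-DG replicate 1, at 0.10 for 2-DG against NC and -0.10 for Nala against 2-DG, and RAD51C without 2-DG replicate 2, at 0.022 for Nala against 2-DG; none of these was called. Their log2 fold changes with 1 library left out ran from -0.24 to 0.10, from -0.10 to 0.24 and from -0.27 to 0.02. Same-numbered libraries showed no shared deviation, but this does not settle whether replicate numbers mark a shared batch. The replicate block, run with the Nala pair apart, left 32 genes lower with 2-DG. The block gave the same counts of 2 as keeping the pair apart without it. The cause of these differences was not tested. With 3, 3 and 2 samples, small changes such as those of RAD50, WRN or FANCC could not be separated from 0, and for PIF1, with as few as 26 reads in a library, counting error adds to the spread.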
